A study of Mus musculus with 10 samples.

Results

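The constitutive proteasome subunits are the genes of the standard 20S core (Psma1 to Psma7 and Psmb1 to Psmb7), the 19S regulator (Psmc1 to Psmc6 and Psmd1 to Psmd14, which include 3 assembly chaperones of the regulator's base), the activators Psme3 and Psme4, and Pomp, the factor that matures the core. Members were taken by gene symbol from the array annotation. All 37 had a probe set, out of 8251 named genes, and together they held 47 of the 12422 probe sets that are not controls. Of the 37 genes, 34 were on both array designs of the study, and 33 of these passed the filter on low signals. Psmc4 did not pass it (11.7 to 60.2 on the 10 arrays), and Psmc1, Psmc5 and Psmd6 were on the later design only.

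The samples were primary cultures of neocortical neurons from foetal Swiss albino mice of gestation day 15 or 16, and the series asks which transcripts change when such neurons die under lactacystin. On day 5 in vitro, cultures received 1 µM lactacystin in serum-free medium and were collected after 24 h (3 arrays) or 48 h (3 arrays). The control cultures were collected at the same times, with 2 arrays at 24 h and 2 at 48 h. The labels call them control and do not say whether they received DMSO, the solvent of the lactacystin stock. Each group held 1 Affymetrix U74A array; the remaining arrays, 2 in each lactacystin group and 1 in each control group, were of the revised design U74Av2. The labels number the replicates but do not say that they were separate cultures, so every p-value refers to the variation among these arrays, part or all of which may be technical.

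The 26S proteasome is the protease that degrades most ubiquitin-tagged proteins in the cell. Its 20S core is a barrel in which rings of alpha subunits guard the entrance and rings of beta subunits carry the catalytic sites. The 19S regulator caps the barrel, and its receptors, deubiquitinase and ATPase motor bind, strip and unfold the substrate. Lactacystin, a Streptomyces product, modifies the catalytic threonine of the beta subunits, most readily that of Psmb5. In mammalian cells, blocking the proteasome is known to raise transcription of its own subunit genes through NRF1, encoded by Nfe2l1, which binds antioxidant response elements. In neurons the proteasome also takes part in axon and synapse remodelling.

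Signals are MAS5 values scaled so that each array has a trimmed mean of 500. The tables of the 2 designs were normalised separately, and with design as a covariate each difference below is built from differences within a design. Changes are lactacystin minus control on the log2(signal + 32) scale, which understates the change of dim probe sets, and ± is the standard error. A probe set was called at a limma adjusted p under 0.05, with Benjamini-Hochberg adjustment over 6984 probe sets. Values of a group stand in replicate order, so the U74A array comes first in every group except lactacystin at 48 h, where it comes last. Array medians before rescaling lay between 157.9 and 234.1. Overlap of groups was judged over the arrays of both designs together, so signal differences between the designs are part of it.

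After 24 h of lactacystin, transcripts of nearly the whole complex were higher. In such bulk samples, fewer cells of a type and less RNA per cell cannot be told apart. Of the 33 members tested, 28 rose and 0 fell, where 8.20% of all probe sets tested were called higher and 6.66% lower. The median change of the members was 0.85, beside -0.03 over all probe sets tested. In 29 members the 3 lactacystin arrays all lay above both control arrays and in 0 members all lay below, which held for 17.2% and 18.9% of all probe sets tested. After 48 h, 0 of 33 members were called in either direction, where 6.77% of all probe sets were called higher and 3.57% lower (limma). At an unadjusted p under 0.05 there were 2 such members at 48 h. The median change of the members was then 0.02, beside 0.04 over all probe sets tested. When arrays were scaled to their medians instead, the median of all probe sets tested at 48 h moved to -0.11, that of the members to -0.14, and the calls split into 287 higher and 636 lower, against 473 higher and 249 lower with the scaling used here.

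**Figure D1:**
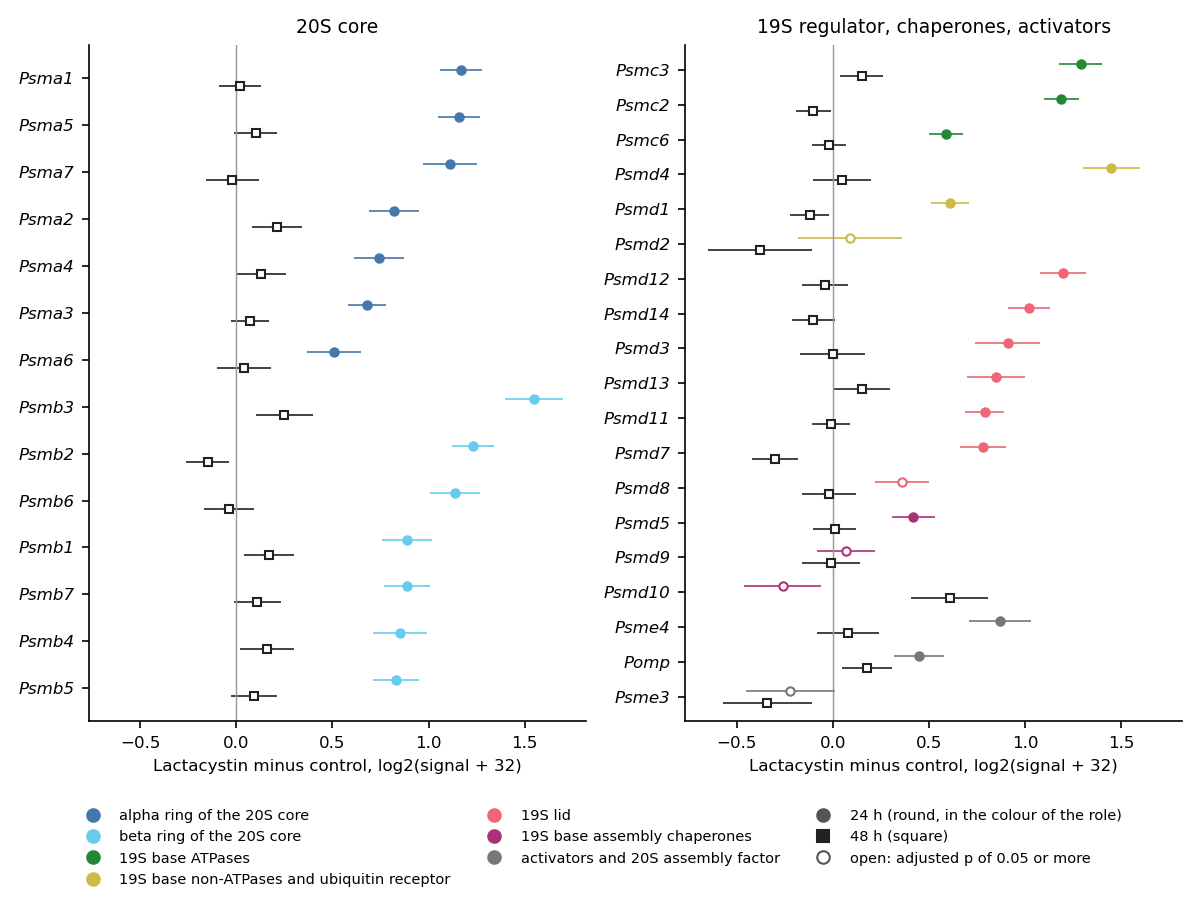
Change of each tested member on the log2(signal + 32) scale (lactacystin minus control, with standard error), by role, at 24 h (round, coloured by role) and 48 h (black squares). Filled markers had an adjusted p under 0.05; 28 of 33 markers are filled at 24 h and 0 of 33 at 48 h.

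The median shift of the members at 24 h was nearly the same on every lactacystin array, though replicates 2 and 3 were compared with the same control array. Single members differed more between the designs, such as Psme4 (0.52 within U74A, 1.17 within U74Av2) and Psmb5 (1.04 and 0.69). Against the control of the same time and design, the median member lay 0.86 higher on each of the 3 lactacystin arrays at 24 h, with 32, 31 and 30 of 33 members above that control. At 48 h the corresponding medians were 0.06, 0.09 and -0.04 on replicates 1, 2 and 3, with 22, 21 and 12 members above the control. Within U74A (1 lactacystin and 1 control array) and within U74Av2 (2 and 1 arrays), which share no array, 31 of 33 members had a positive change at 24 h in both. Across the 33 members, the 24 h changes within the 2 designs had a Pearson r of 0.82 and a Spearman rho of 0.80, beside 0.62 and 0.53 over all probe sets tested. At 48 h they had r = 0.30 and rho = 0.23 across the members, below the 0.55 and 0.47 over all probe sets tested. These correlations are across genes, which are not independent replicates, and the probes are common to both designs.

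**Figure D2:**
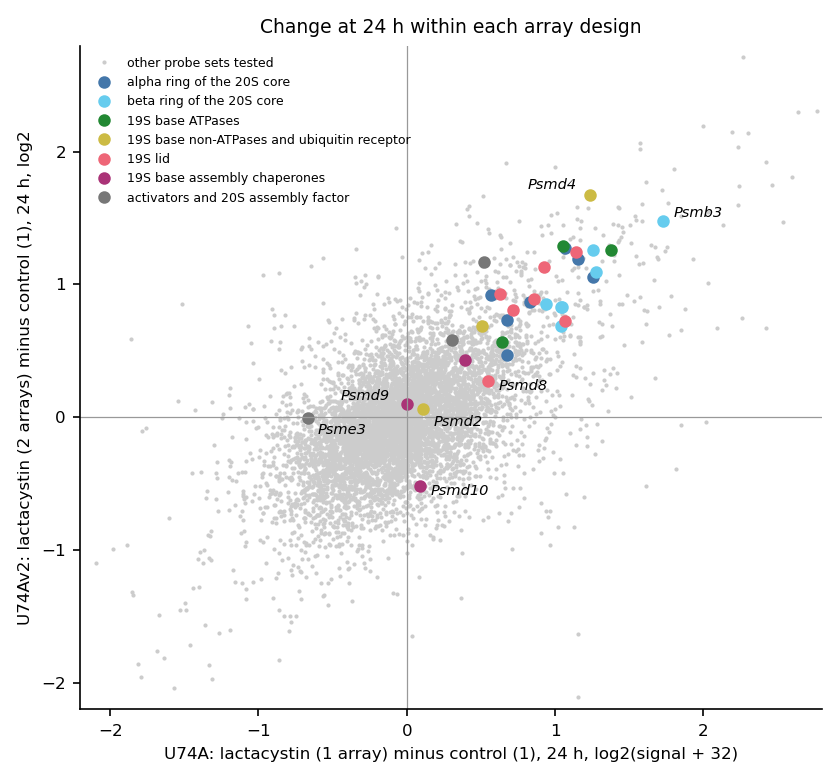
Change at 24 h (lactacystin minus control, log2(signal + 32)) within U74A on the horizontal axis and within U74Av2 on the vertical axis, for the 33 tested members (coloured by role) and the other probe sets tested (grey; some fall outside the axes). Of the members, 31 lie in the upper right quadrant, Psme3 lies at the lower left, next to the horizontal zero line, and Psmd10 at the lower right.

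Promoter windows were available from RefSeq (GRCm38.p6, 250 bases before to 50 after a gene's start) for 31 of the 37 genes, in 33 windows; Psmb1, Psmb2, Psmb7, Psmc3, Psmd3 and Psmd7 had no entry. The letters TGACNNNGC, the core of the antioxidant response element, were searched on both strands and were found in 6 of 33 member windows (18.2%), beside 12.4% of 32851 windows of the same length. The genes were Psmb5, Psmb6, Psmc6, Psmd12, Psmd9 and Psme4. The heat shock element core GAANNTTC was in 1 member window (3.03%, beside 7.86% of all windows) and the NF-Y box CCAAT in 12 (36.4%, beside 37.4%), and neither overlapped a TGACNNNGC match. The 5 windows printed here were chosen after the changes were known, to set windows with the letters beside windows of the genes that changed most. Psmb5 (chr14:54617946-54618245, minus strand) and Psmb6 (chr11:70525107-70525406, plus strand) hold the core 47 and 9 bases before the start and rose by 0.83 and 1.14. Psmd9 (chr5:123227940-123228239, plus strand) holds it 31 bases before the start and had a change of 0.07. Psmb3 (chr11:97703184-97703483, plus strand) and Psmd4 (chr3:95042565-95042864, minus strand) lack it within the window and had the largest rises of the tested members, 1.55 and 1.45. Sequences are 5′ to 3′ on the gene's strand, with the match in capitals.
Psmb5: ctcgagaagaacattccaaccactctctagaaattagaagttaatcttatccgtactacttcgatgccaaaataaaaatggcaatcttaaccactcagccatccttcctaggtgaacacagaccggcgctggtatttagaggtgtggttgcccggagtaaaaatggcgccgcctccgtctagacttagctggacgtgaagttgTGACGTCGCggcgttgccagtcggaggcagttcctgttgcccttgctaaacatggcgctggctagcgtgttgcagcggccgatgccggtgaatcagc
Psmb6: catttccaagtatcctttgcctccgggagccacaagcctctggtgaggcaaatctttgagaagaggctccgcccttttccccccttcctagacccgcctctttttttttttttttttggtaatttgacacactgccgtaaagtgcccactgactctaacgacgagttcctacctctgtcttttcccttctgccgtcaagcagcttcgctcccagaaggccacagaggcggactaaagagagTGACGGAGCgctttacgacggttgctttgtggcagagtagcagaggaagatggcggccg
Psmd9: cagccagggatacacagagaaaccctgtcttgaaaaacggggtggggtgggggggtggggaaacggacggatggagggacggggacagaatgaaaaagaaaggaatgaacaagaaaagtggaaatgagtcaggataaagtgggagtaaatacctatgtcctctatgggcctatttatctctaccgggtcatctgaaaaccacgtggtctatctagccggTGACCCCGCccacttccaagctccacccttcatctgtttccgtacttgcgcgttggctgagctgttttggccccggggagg
Psmb3: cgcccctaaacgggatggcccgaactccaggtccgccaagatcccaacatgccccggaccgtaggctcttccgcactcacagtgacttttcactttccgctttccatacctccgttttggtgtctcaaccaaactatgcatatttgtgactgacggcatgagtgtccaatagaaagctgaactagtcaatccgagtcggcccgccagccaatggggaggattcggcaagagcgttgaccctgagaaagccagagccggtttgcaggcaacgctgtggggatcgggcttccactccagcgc
Psmd4: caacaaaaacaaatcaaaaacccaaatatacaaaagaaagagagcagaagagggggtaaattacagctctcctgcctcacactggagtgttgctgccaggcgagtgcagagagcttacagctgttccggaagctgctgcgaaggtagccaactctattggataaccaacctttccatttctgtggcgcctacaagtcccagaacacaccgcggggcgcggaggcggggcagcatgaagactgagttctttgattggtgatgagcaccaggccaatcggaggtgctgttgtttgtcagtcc
Over all tested members with a window, the 6 with the core had a median change of 0.85 at 24 h with 5 called higher, and the 21 without had a median of 0.79 with 17 called higher. A match is only a string of letters in the window, and a missing match says nothing about sites elsewhere.

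The 7 alpha subunits, which form the outer rings and the gate of the core, all rose at 24 h, with a median change of 0.82. Psma1 had scaled signals of 1587, 1771 and 1708 in lactacystin cultures at 24 h, against 741 and 699 in their controls, and 794, 781 and 653 in lactacystin cultures at 48 h, against 673 and 762 in their controls. The 24 h lactacystin arrays stood above the other 7 arrays, and Psma1 had the largest change of the ring, 1.17 ± 0.11 (adjusted p = 8.98e-05), a 2.25-fold difference. Psma5 gave 3763, 4580 and 5149 in lactacystin cultures at 24 h, against 1669 and 2102 in their controls, and 2731, 3012 and 1815 in lactacystin cultures at 48 h, against 1855 and 2537 in their controls. All 3 lactacystin arrays at 24 h were again above every control array, with a change of 1.16 ± 0.11 (adjusted p = 8.60e-05). Psma7 read 5101, 4909 and 4797 in lactacystin cultures at 24 h, against 2121 and 2313 in their controls, and 2726, 2835 and 1810 in lactacystin cultures at 48 h, against 2249 and 2520 in their controls. Psma7 changed by 1.11 ± 0.14 (adjusted p = 0.000477), with no overlap between lactacystin and control at 24 h. Psma6 was at 6147, 6907 and 6527 in lactacystin cultures at 24 h, against 3836 and 4844 in their controls, and 5419, 5558 and 3276 in lactacystin cultures at 48 h, against 3274 and 5542 in their controls. Its groups did not overlap at 24 h either, and the change was the smallest of the ring, 0.51 ± 0.14 (adjusted p = 0.0314). Psma2, Psma3 and Psma4 rose by 0.82, 0.68 and 0.74, with no overlap of their groups. At 48 h the changes of the 7 alpha genes lay between -0.02 and 0.21, and in each of them lactacystin and control arrays overlapped. The call of Psma6 at 24 h was lost without lactacystin replicate 1 (adjusted p = 0.113) or 2 (0.0532) and without control replicate 1 (0.0784) or 2 (0.302). Those of Psma2 (0.0525) and Psma4 (0.0827) were lost without control replicate 2.

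The 7 beta subunits also all rose at 24 h, with a median of 0.89. Among them are the 3 catalytic subunits. Psmb5 carries the chymotrypsin-like site, the main target of lactacystin. Psmb5 had scaled signals of 5542, 4818 and 4681 in lactacystin cultures at 24 h, against 2684 and 2933 in their controls, and 2734, 3467 and 2858 in lactacystin cultures at 48 h, against 2832 and 2795 in their controls. Every 24 h lactacystin array was above every other array, and the change was 0.83 ± 0.12 (adjusted p = 0.00132), a 1.78-fold difference. A second, dim probe set of Psmb5, on U74Av2 alone, went the other way at 24 h (-0.49) and is given further below. Psmb6 gave 6155, 5927 and 6454 in lactacystin cultures at 24 h, against 2528 and 2886 in their controls, and 3715, 3887 and 2487 in lactacystin cultures at 48 h, against 2927 and 3672 in their controls. This caspase-like subunit rose by 1.14 ± 0.13 (adjusted p = 0.000222) with no overlap at 24 h. Psmb7 read 4659, 4957 and 5157 in lactacystin cultures at 24 h, against 2250 and 2830 in their controls, and 3156, 3436 and 2171 in lactacystin cultures at 48 h, against 2142 and 3027 in their controls. Psmb7, the trypsin-like subunit, rose by 0.89 ± 0.12 (adjusted p = 0.000683), again without overlap. Changes at 48 h were 0.09 ± 0.12 for Psmb5, -0.04 ± 0.13 for Psmb6 and 0.11 ± 0.12 for Psmb7, and their arrays overlapped.

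The other 4 beta subunits have no catalytic site. Psmb3 had scaled signals of 7716, 7917 and 8049 in lactacystin cultures at 24 h, against 2303 and 2843 in their controls, and 3714, 4500 and 2454 in lactacystin cultures at 48 h, against 2291 and 3328 in their controls. At 2.92-fold, Psmb3 had the largest change at 24 h of all tested members, 1.55 ± 0.15 (adjusted p = 8.60e-05), and its lowest 24 h lactacystin array was well above its highest other array. Psmb2 was at 4179, 6276 and 6057 in lactacystin cultures at 24 h, against 1735 and 2552 in their controls, and 3039, 2982 and 1568 in lactacystin cultures at 48 h, against 1937 and 3191 in their controls. Signals of Psmb2 were lower on U74A than on U74Av2 in every group, and at 24 h the groups did not overlap, with a change of 1.23 ± 0.11 (adjusted p = 4.72e-05). Psmb1 rose by 0.89 ± 0.13 and Psmb4 by 0.85 ± 0.14; the call of Psmb4 was lost without control replicate 2 of 24 h (adjusted p = 0.0804). A further pair of probe sets of Psmb4 was too dim to be tested (13.6 to 73.6 and 0.7 to 17.7). The 7 beta genes at 48 h lay between -0.15 and 0.25, with overlapping arrays.

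**Figure D3:**
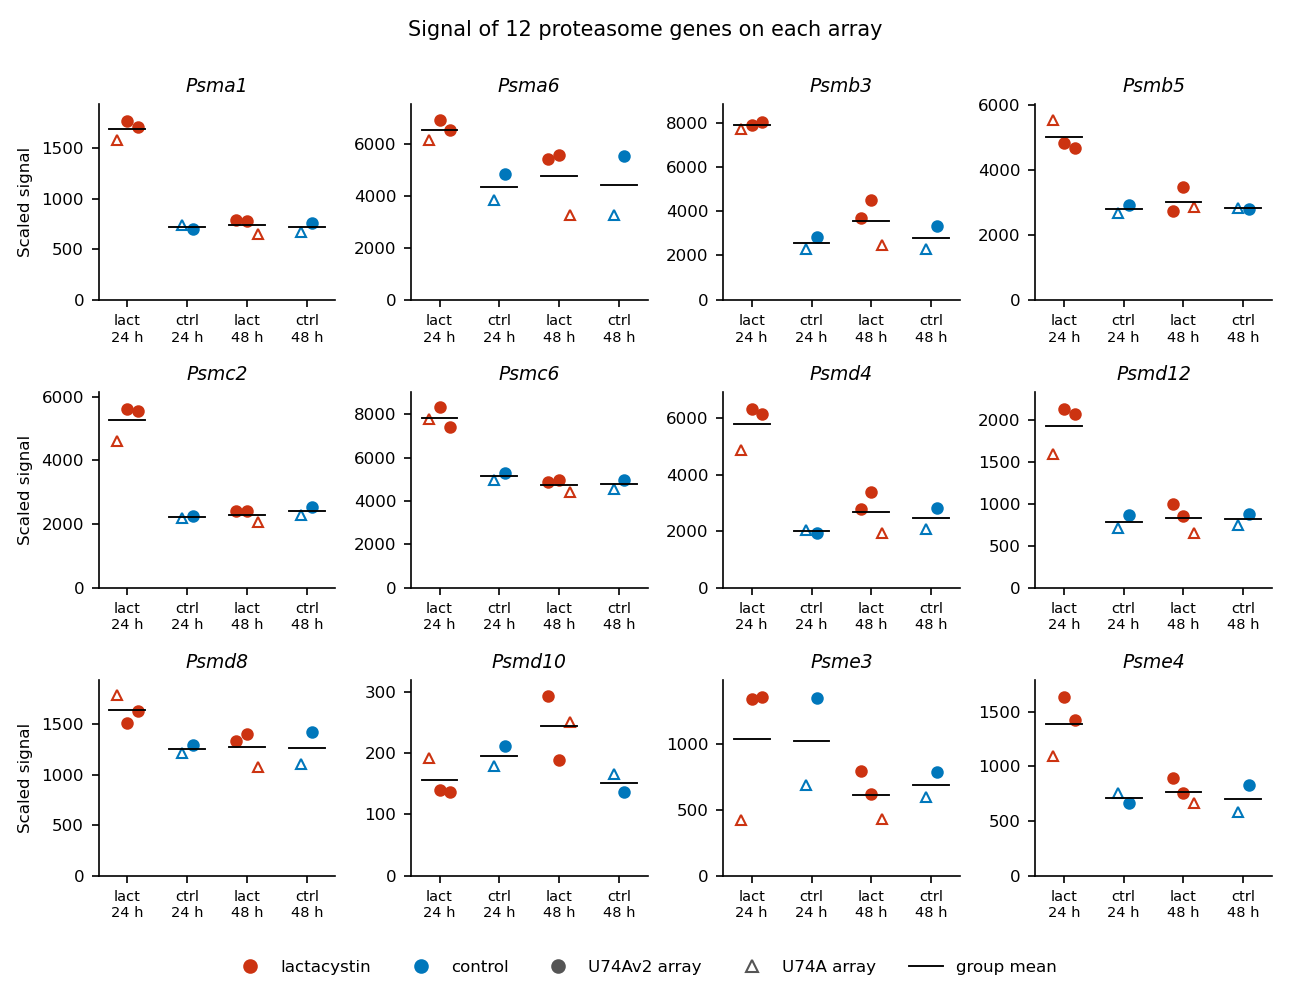
Scaled signal (linear axis starting at 0) of 12 members on each of the 10 arrays, with lactacystin in red and control in blue; open triangles are U74A arrays, filled circles U74Av2 arrays, and lines are group means. In 9 of the panels shown, the 24 h lactacystin arrays all lie above both 24 h controls and the change at 24 h was called; Psmd8 lies above without being called, and Psmd10 and Psme3 overlap.

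Of the 6 ATPases that form the motor of the regulator, 3 were tested on both designs, and all 3 rose at 24 h. Psmc2 had scaled signals of 4618, 5622 and 5544 in lactacystin cultures at 24 h, against 2204 and 2261 in their controls, and 2415, 2422 and 2062 in lactacystin cultures at 48 h, against 2279 and 2551 in their controls. The 24 h lactacystin arrays were the 3 highest of the 10, and the change of 1.19 ± 0.09 had the smallest adjusted p among the members at 24 h, 3.27e-05. Psmc3 read 2926, 3154 and 3157 in lactacystin cultures at 24 h, against 1109 and 1300 in their controls, and 1641, 1774 and 1205 in lactacystin cultures at 48 h, against 1202 and 1448 in their controls. Psmc3 changed by 1.29 ± 0.11 (adjusted p = 4.72e-05) without overlap, and its other 2 probe sets rose by 1.43 ± 0.11 and 1.08 ± 0.12. Psmc6 gave 7788, 8317 and 7410 in lactacystin cultures at 24 h, against 4982 and 5292 in their controls, and 4880, 4954 and 4429 in lactacystin cultures at 48 h, against 4574 and 4983 in their controls. The smallest change of the tested ATPases was that of Psmc6, 0.59 ± 0.09 (adjusted p = 0.00140), also without overlap at 24 h. The 3 genes at 48 h lay between -0.10 and 0.15, with overlapping arrays.

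The base also holds the scaffolds Psmd1 and Psmd2 and the ubiquitin receptor Psmd4. Psmd4 had scaled signals of 4878, 6312 and 6167 in lactacystin cultures at 24 h, against 2052 and 1935 in their controls, and 2780, 3382 and 1921 in lactacystin cultures at 48 h, against 2088 and 2837 in their controls. The 24 h lactacystin arrays were the highest for Psmd4, with a change of 1.45 ± 0.15 (adjusted p = 0.000107), a 2.74-fold difference. Psmd1 read 2564, 3436 and 3332 in lactacystin cultures at 24 h, against 1794 and 2093 in their controls, and 2312, 2215 and 1724 in lactacystin cultures at 48 h, against 1965 and 2397 in their controls. Psmd1 rose by 0.61 ± 0.10 (adjusted p = 0.00189) without overlap at 24 h. Psmd2 was at only 77.3, 63.5 and 55.5 in lactacystin cultures at 24 h, against 69.4 and 55.8 in their controls, and 56.1, 21.4 and 80.6 in lactacystin cultures at 48 h, against 72.1 and 82.2 in their controls. The lowest mean signal that passed the filter was 54.8, the groups overlapped at both times, and the probe set of Psmd2 gave a change of 0.09 ± 0.27 at 24 h (adjusted p = 0.860). Changes at 48 h were 0.05 ± 0.15 for Psmd4, -0.12 ± 0.10 for Psmd1 and -0.38 ± 0.27 for Psmd2, with overlapping arrays in each.

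Of the lid, which removes ubiquitin before the substrate enters the core, 7 members were tested and 6 rose at 24 h, with a median of 0.85 over the 7. Psmd12 had scaled signals of 1595, 2127 and 2078 in lactacystin cultures at 24 h, against 706 and 868 in their controls, and 994, 857 and 649 in lactacystin cultures at 48 h, against 748 and 881 in their controls. Psmd12, a structural lid subunit, had its 3 highest signals on the 24 h lactacystin arrays and the largest change of the lid, 1.20 ± 0.12 (adjusted p = 8.98e-05). Psmd14 read 3348, 3578 and 3707 in lactacystin cultures at 24 h, against 1750 and 1642 in their controls, and 1894, 2021 and 1632 in lactacystin cultures at 48 h, against 1718 and 2196 in their controls. Psmd14 is the deubiquitinase of the lid, and it rose by 1.02 ± 0.11 (adjusted p = 0.000170), a 2.03-fold difference without overlap. Psmd7 gave 2783, 4202 and 4251 in lactacystin cultures at 24 h, against 1682 and 2397 in their controls, and 2613, 1959 and 1703 in lactacystin cultures at 48 h, against 2087 and 2771 in their controls. Its partner Psmd7 rose by 0.78 ± 0.12 (adjusted p = 0.00186), without overlap at 24 h, and its U74A signal was below its U74Av2 signals in every group. Psmd11 was at 5516, 7301 and 7399 in lactacystin cultures at 24 h, against 3548 and 3846 in their controls, and 4250, 4380 and 3040 in lactacystin cultures at 48 h, against 3473 and 4009 in their controls. The change of Psmd11, another structural subunit, was 0.79 ± 0.10 (adjusted p = 0.000614), with all 3 lactacystin arrays above both controls. Psmd8 had scaled signals of 1794, 1509 and 1632 in lactacystin cultures at 24 h, against 1217 and 1296 in their controls, and 1331, 1402 and 1081 in lactacystin cultures at 48 h, against 1109 and 1426 in their controls. The 24 h groups of Psmd8 did not overlap, but its change of 0.36 ± 0.14 missed the threshold (adjusted p = 0.110). Psmd3 rose by 0.91 ± 0.17 and Psmd13 by 0.85 ± 0.15; the call of Psmd3 was lost without control replicate 1 of 24 h (adjusted p = 0.0545). The lid at 48 h lay between -0.30, the value of Psmd7, and 0.15, and arrays of lactacystin and control overlapped in all 7 genes.

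The 3 base assembly chaperones, which bind ATPases before the base is joined to the core, did not move together. Psmd5 had scaled signals of 1043, 1396 and 1236 in lactacystin cultures at 24 h, against 785 and 967 in their controls, and 1059, 971 and 843 in lactacystin cultures at 48 h, against 848 and 993 in their controls. Psmd5 rose by 0.42 ± 0.11 at 24 h (adjusted p = 0.0262), without overlap, but the call was lost without lactacystin replicate 2 (0.102) or 3 (0.0552) and without control replicate 1 (0.108) or 2 (0.157). Psmd9 read 445, 593 and 493 in lactacystin cultures at 24 h, against 444 and 502 in their controls, and 555, 467 and 389 in lactacystin cultures at 48 h, against 479 and 437 in their controls. Arrays of Psmd9 overlapped at both times, with changes of 0.07 ± 0.15 at 24 h (adjusted p = 0.813) and -0.01 ± 0.15 at 48 h. Psmd10 was at 191, 140 and 136 in lactacystin cultures at 24 h, against 178 and 212 in their controls, and 293, 188 and 250 in lactacystin cultures at 48 h, against 165 and 136 in their controls. For Psmd10, gankyrin, the groups overlapped at 24 h (-0.26 ± 0.20, adjusted p = 0.417), whereas at 48 h all 3 lactacystin arrays were above both controls. Over the arrays of both designs together, it was the only member without overlap at 48 h. Of all probe sets tested, 16.6% were then entirely higher and 9.87% entirely lower. Within each design taken alone, further members were separate at 48 h, such as Psmb3 (higher) and Psmd7 (lower), but U74A gives a single array per group. The change of Psmd10, 0.61 ± 0.20, missed the threshold (adjusted p = 0.0777). Without lactacystin replicate 2 of 48 h it passed (adjusted p = 0.0499).

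Activators attach to the core in place of the 19S regulator. Psme4 had scaled signals of 1091, 1634 and 1426 in lactacystin cultures at 24 h, against 752 and 662 in their controls, and 894, 751 and 659 in lactacystin cultures at 48 h, against 577 and 831 in their controls. Psme4, the large activator PA200, rose by 0.87 ± 0.16 at 24 h (adjusted p = 0.00418) without overlap; without control replicate 2 the call was lost (adjusted p = 0.110). Psme3 read 422, 1341 and 1357 in lactacystin cultures at 24 h, against 690 and 1352 in their controls, and 794, 623 and 433 in lactacystin cultures at 48 h, against 595 and 789 in their controls. Signals of Psme3, the nuclear activator PA28 gamma, were about the same on all U74Av2 arrays of 24 h and lower on the lactacystin than on the control array within U74A, so that the groups overlapped, with changes of -0.22 ± 0.23 at 24 h (adjusted p = 0.555) and -0.34 ± 0.23 at 48 h. Pomp gave 3506, 3440 and 3207 in lactacystin cultures at 24 h, against 2833 and 2206 in their controls, and 3709, 2980 and 3056 in lactacystin cultures at 48 h, against 3110 and 2690 in their controls. The groups of Pomp did not overlap at 24 h, and its change of 0.45 ± 0.13 passed (adjusted p = 0.0381). That call was lost in 6 of the fits that leave out 1 array, namely without any 1 of the 3 lactacystin arrays of 24 h (adjusted p = 0.0750, 0.108 and 0.0767), control replicate 2 of 24 h (0.420), or either control array of 48 h (0.0556 and 0.0559).

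Between 24 h and 48 h, most members fell in the lactacystin cultures, and none was called in the controls. In lactacystin cultures at 48 h against lactacystin cultures at 24 h, 27 of 33 members were lower and 0 higher, where 5.38% of all probe sets tested were called lower and 6.19% higher (224 higher and 526 lower with median scaling, against 432 and 376). The median change of the members was -0.79, beside 0.04 over all probe sets tested. The 48 h lactacystin arrays all lay below the 24 h ones in 27 members and above them in 0, which held for 9.55% and 11.8% of all probe sets tested. The 8 largest of these falls among called members were those of Psmb3 (-1.19), Psmd12 (-1.19), Psmc2 (-1.18), Psma1 (-1.16), Psmb2 (-1.15), Psmd4 (-1.12), Psmd3 (-1.03) and Psma7 (-1.02). Pomp (-0.06), Psmd2 (-0.26), Psmd8 (-0.37), Psmd9 (-0.12), Psmd10 (0.55) and Psme3 (-0.59) were not called. The call of Psmd5 (-0.34) was lost whichever of the 10 arrays was left out, and that of Psma6 (-0.49) without lactacystin replicate 1 or 2 of 24 h or 1 or 3 of 48 h. Psme3 passed without lactacystin replicate 1 of 24 h (adjusted p = 0.00409), and Psmd10, which was higher, without lactacystin replicate 2 of 48 h (0.0420). In control cultures at 48 h against 24 h, 0 of 33 members were called in either direction by limma, with a median of 0.01, and 0% of all probe sets tested were called; at an unadjusted p under 0.05 there were 391 probe sets, 0 of them members.

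The treatment effect itself differed between the times. In the interaction, the effect at 48 h minus the effect at 24 h, 16 of 33 members were lower and 0 higher, where 0.816% of all probe sets tested were called lower and 0.415% higher (18 higher and 135 lower with median scaling, against 29 and 57). The median difference of the members was -0.73, beside 0.07 over all probe sets tested. Psmd4 had the largest difference, -1.41 ± 0.21 (adjusted p = 0.0100), followed by Psmb2 with -1.39 ± 0.15 (adjusted p = 0.00212), Psmb3 with -1.30 ± 0.21 (adjusted p = 0.0130) and Psmc2 with -1.29 ± 0.13 (adjusted p = 0.00186). The others called were Psma1, Psma5, Psma7, Psmb6, Psmb7, Psmc3, Psmc6, Psmd1, Psmd7, Psmd11, Psmd12 and Psmd14. Psmb5 missed the threshold with -0.73 ± 0.17 (adjusted p = 0.0687), and Psmd10 had the only positive difference of the 33, 0.86 ± 0.28 (adjusted p = 0.156). The count depended on single control arrays: it was 9 without control replicate 1 of 24 h, 3 without replicate 2 of 24 h, 2 without replicate 1 of 48 h (Psmb2 and Psmc2 passed) and 6 without replicate 2 of 48 h, and it was 0 with no design covariate. The calls of Psmb7 and Psmc6 were also lost without lactacystin replicate 2 or 3 of 24 h or 1 or 3 of 48 h, and those of Psmd1 and Psmd11 without lactacystin replicate 2 or 3 of 24 h (adjusted p = 0.0718 to 0.134). Psmb1, Psmb5 and Psmd13 passed without lactacystin replicate 2 of 48 h (adjusted p = 0.0335, 0.0207 and 0.0435), and Psmd3 without control replicate 2 of 48 h (0.0382).

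Genes present on U74Av2 alone were fitted on its 6 arrays, with 1 control array per time and adjustment over 8696 probe sets. The spread in this fit comes from the 2 pairs of lactacystin arrays alone, and each lone control array is assumed to vary like them, so the p-values hold no spread between controls. Of 7 member probe sets tested in it, 5 were called higher at 24 h, and 1 without the mean-variance trend in limma's eBayes. The ATPase Psmc1 read 2999 and 3011 in lactacystin cultures at 24 h, against 1463 in their control, and 1653 and 1337 in lactacystin cultures at 48 h, against 1391 in their control. Both 24 h lactacystin arrays were higher, with a change of 1.02 ± 0.15 (adjusted p = 0.0142). The ATPase Psmc5 read 2153 and 2000 at 24 h, against 1211 in the control, a change of 0.76 ± 0.12 (adjusted p = 0.0186). The lid subunit Psmd6 read 6087 and 6421 at 24 h, against 3628 in the control, a change of 0.78 ± 0.09 (adjusted p = 0.00833). At 48 h the changes of the 3 genes were 0.09 ± 0.15, -0.10 ± 0.12 and 0.10 ± 0.09, none of them called. Higher calls at 24 h made up 4.65% of all probe sets of the fit, and at 48 h 0 of the 7 member probe sets were called higher (limma; 3.12% of all; 0 at an unadjusted p under 0.05). The other 2 higher ones were second probe sets of Psmd11 (1.42 ± 0.12) and Psmb1 (0.50 ± 0.09). The remaining probe set of Psmd11 (157 and 190 with lactacystin at 24 h, against 205) and a second one of Psmb5 (188 and 186, against 276) were dim and not called (-0.21 ± 0.24 and -0.49 ± 0.18), so they differ in sign from the brighter probe sets of those genes. Further U74Av2-only probe sets of Psmb1 (16.1 to 43.8) and Psmc5 (9.0 to 47.4) did not pass the filter. In lactacystin cultures at 48 h against 24 h, Psmc1 (adjusted p = 0.00816), Psmc5 (-0.70 ± 0.10), Psmd6 (-0.60 ± 0.08) and the brighter probe set of Psmd11 (-1.11 ± 0.10) were lower, where 4.42% of all probe sets of the fit were.

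Other genes of the pathway were read from lists for the inducible subunits and for proteasome-associated genes. Of the 5 inducible subunits and PA28 genes, which replace or activate core subunits under interferon, Psmb10 and Psme1 were bright enough to be tested. Psmb10 read 712, 423 and 525 in lactacystin cultures at 24 h, against 694 and 414 in controls, and its arrays overlapped (0.08 ± 0.17, adjusted p = 0.792). Psme1 read 904, 805 and 809, against 811 and 982, also with overlap (-0.14 ± 0.17, adjusted p = 0.629). Psmb8 and Psmb9 did not pass the filter on low signals. In a list of 24 proteasome-associated genes, 15 were tested. At 24 h 6 rose and 1 fell, with a median of 0.39, where 8.20% of all probe sets tested were called higher and 6.66% lower. At 48 h 1 rose and 0 fell, where 6.77% of all probe sets tested were called higher and 3.57% lower. Sqstm1, an autophagy receptor for ubiquitinated cargo, read 4828, 5600 and 5827 in lactacystin cultures at 24 h, against 1446 and 1726 in controls, a change of 1.68 ± 0.16 (adjusted p = 8.98e-05). At 48 h it read 2318, 3406 and 1666, against 1522 and 2088, with overlapping arrays (0.33 ± 0.16, adjusted p = 0.245). Vcp, the segregase that extracts ubiquitinated proteins, rose by 0.95 ± 0.13 at 24 h, Ecpas, a scaffold of proteasomes under stress, by 0.84 ± 0.14, Sem1, a small lid subunit, by 0.54 ± 0.11, and Rad23b, a shuttle for ubiquitinated substrates, by 0.49 ± 0.12. The shuttle gene Ubqln2 fell by 0.45 ± 0.11 (adjusted p = 0.0189). The core assembly chaperones Psmg1, Psmg2, Psmg3 and Psmg4 had changes of 0.39, 0.20, 0.02 and 0.01 at 24 h, none of them called.

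The list also holds both NRF factor genes. Nfe2l2, which encodes NRF2, read 979, 511 and 584 in lactacystin cultures at 24 h, against 313 and 174 in controls, and 585, 693 and 818 in lactacystin cultures at 48 h, against 297 and 174 in controls. Lactacystin arrays were higher without overlap at both times, with changes of 1.49 ± 0.15 (adjusted p = 9.82e-05) and 1.58 ± 0.15 (adjusted p = 0.000171), and the difference between the times was 0.09 ± 0.21 (adjusted p = 0.864). Nfe2l1, which encodes NRF1, read 501, 84.3 and 89.4 at 24 h, against 453 and 89.6 in controls; its signal followed the array design, and its changes were 0.03 ± 0.15 at 24 h and -0.06 ± 0.15 at 48 h. The arrays measure transcripts and not the NRF1 protein or its processing, and a part of NRF1 or NRF2 in the changes above was not tested.

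**Figure D4:**
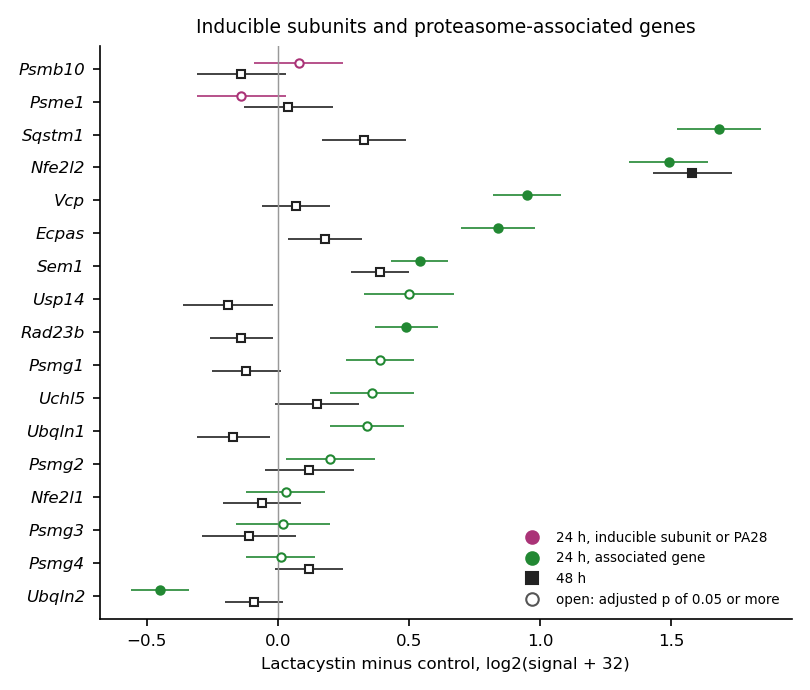
Change of the tested inducible and PA28 genes (purple) and proteasome-associated genes (green) on the log2(signal + 32) scale, lactacystin minus control with standard error, at 24 h (round) and 48 h (black squares); filled markers had an adjusted p under 0.05. At 24 h 6 associated genes were higher and Ubqln2 lower, and Nfe2l2 was the gene called at 48 h.

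Summed signals of some cell type markers differed between the groups as well, and a ratio of Gapdh control probe sets differed mainly between the array designs. The part of both in the results above was not tested. All 7 neuron markers on both designs had mean signals above 32 in every group. Their summed signals were 14314 to 15945 in lactacystin cultures at 24 h, against 21305 to 23991 in controls. At 48 h the sums were 17081 to 21565 in lactacystin cultures, against 25581 to 26113 in controls. At each time 2 of the 7 were called lower and 0 higher. The 7 did not all fall: 2 had a positive change at 24 h (median -0.37) and 1 at 48 h (median -0.40). The sums of 8 astrocyte and radial glia markers were 13402 to 21326 with lactacystin at 24 h, against 16692 to 24935, and 24167 to 30459 with lactacystin at 48 h, against 19032 to 26734, so these cultures hold glial transcripts too; of 7 tested, 1 was called higher and 3 lower at 24 h, and 3 higher at 48 h. Sums of 8 fibroblast, mural and meningeal markers were 1217 to 2517 with lactacystin at 24 h, against 1348 to 1355, and 2120 to 3925 with lactacystin at 48 h, against 1262 to 1347. Of 7 tested, Tagln was called higher at 24 h (1.24 ± 0.27), and Acta2 (2.10 ± 0.33) and Tagln (2.12 ± 0.27) at 48 h, and 0 were called lower. The list did not move as a whole: 2 of the 7 had a positive change at 24 h (median -0.38) and 5 at 48 h (median 0.06). Summed signals of 9 microglia and macrophage markers were 730 to 1407 with lactacystin at 24 h, against 594 to 878, and 986 to 1557 at 48 h, against 510 to 1057. Of these 9 genes, 2 had a mean under 32 in the lactacystin groups and 3 in the control groups. Of 6 tested, Cd68 was called higher at 24 h (1.41 ± 0.27), and Cd68 (1.47 ± 0.27), Tyrobp (1.04 ± 0.27) and Ctss (0.76 ± 0.17) at 48 h, and 0 were called lower. A positive change was seen in 3 of the 6 at 24 h (median -0.04) and in 5 at 48 h (median 0.47). Beside these marker counts, 8.20% of all probe sets tested were called higher and 6.66% lower at 24 h. The shares at 48 h were 6.77% and 3.57%. Sums of the oligodendrocyte, endothelial and erythroid markers lay between 86 and 871 in all groups. The log2 ratio of the 3′ to the 5′ control probe set of Gapdh was -0.47 to -0.34 on U74A arrays and 0.63 to 1.80 on U74Av2 arrays, and that of Actb was 0.14 to 0.54 on all arrays. On U74Av2 the Gapdh ratio was 1.41 and 1.25 with lactacystin at 24 h, against 0.69 in the control, and 1.80 and 0.63 with lactacystin at 48 h, against 1.31.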

How the data were processed

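The deposited values are intensity values computed by the authors with MAS5, per the submitters' processing notes; its version, the scaling target and any filter are not given in the sources used here. The intensities were deposited as 2 tables, U74A (4 arrays) and U74Av2 (6 arrays). Gene names are those of the platform annotation, brought up to date through their Entrez identifiers. Each array was rescaled to a 2% trimmed mean of 500 over the 9977 shared probe sets that are not controls, values were taken as log2(value + 32), and the 30% with the lowest mean were left out (2993). On each array 19.9% to 27.8% of values were below 32. limma 3.58.1 (R 4.3.3) was fitted on all 10 arrays with 4 groups and array design as covariate (5 residual degrees of freedom, eBayes with trend); the number of arrays limits the precision. A gene is given by its probe set of highest mean signal, and whether that probe set reads its gene alone was not tested. The members and gene lists were chosen with earlier results of these data known. All members could be named; values on every array are given for the catalytic subunits, the members with the largest and smallest change of each role at 24 h, and those called in the interaction. No pairing by replicate number was used. Deviations of same-numbered arrays from their group means correlated between -0.623 and 0.678, positively within a design and negatively across designs. Replicate numbers largely follow the array design, which was left in these deviations, so these correlations cannot tell whether the numbers pair the arrays. With the design removed too, same-numbered arrays correlated between -0.408 and 0.266. In both forms the 2 control arrays of a time mirror each other by construction, so the second form cannot tell either. Alternatives changed the scaling, pseudocount, filter, covariates, probe set rule and eBayes options, or left out 1 array.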

Additional observations from a re-analysis of the deposited data

Results flagged for a closer look

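For 16 members the lactacystin effect at 48 h differed from that at 24 h by the interaction test (limma, adjusted p under 0.05), and each is given here with the effect at 48 h minus the effect at 24 h on the log2(signal + 32) scale. In the core they were the alpha subunits Psma1 (-1.15), Psma5 (-1.06) and Psma7 (-1.13) and the beta subunits Psmb2 (-1.39), Psmb3 (-1.30), Psmb6 (-1.17) and Psmb7 (-0.79). In the base they were the ATPases Psmc2 (-1.29), Psmc3 (-1.13) and Psmc6 (-0.61), the scaffold Psmd1 (-0.73) and the ubiquitin receptor Psmd4 (-1.41). In the lid they were Psmd7 (-1.08), Psmd11 (-0.81), Psmd12 (-1.24) and Psmd14 (-1.12). All 16 were called higher at 24 h and none at 48 h. None of the 16 was called in every alternative that was run, and the count without each control array stands with the interaction above. Outliers within a group were not looked for, since groups held 2 or 3 arrays.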

How the results depend on the processing

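At 24 h the count of members called higher was 28, between 21 and 28 when 1 array was left out (lowest without control replicate 2 of 24 h) and between 19 and 29 in the other alternatives, and 15 of the 28 were called in every one. The median change of the members lay between 0.74 and 0.92. At 48 h the count of 0 became 1 with arrays scaled to their medians (Psmd7, lower) and was 0 to 1 with 1 array left out; the median of 0.02 became -0.14 with median scaling and 0.13 with the replicate block in place of the design covariate, and was -0.01 to 0.13 with 1 array left out. For the interaction, the count of 16 became 0 with no design covariate, 3 on the U74Av2 arrays alone and 8 with eBayes without trend, and was 2 to 19 with 1 array left out; the median of -0.73 became -0.92 with median scaling and was -0.85 to -0.66 with 1 array left out. The U74Av2-only count of 5 became 1 with eBayes without trend. With the replicate block in place of the design covariate the interaction count was 0 and the count of members lower in lactacystin cultures at 48 h than at 24 h was 12 in place of 27; with the block added to the design covariate these counts were 12 and 26, and 27 members were called higher at 24 h. The cause of these differences was not tested. Over all probe sets tested, calls at 24 h were 573 higher and 465 lower, against 172 and 76 with no design covariate, 131 and 41 with the block in its place, 334 and 224 on U74Av2 alone, and 206 to 599 and 102 to 508 with 1 array left out. At 48 h they were 473 higher and 249 lower, against 79 and 31, 61 and 21, 242 and 146, and 159 to 521 and 39 to 305 under the same changes, and 305 and 135 with only the groups compared. In the interaction they were 29 higher and 57 lower, against 1 and 1 with no design covariate, 0 and 0 with the block in its place, 4 and 8 on U74Av2 alone, 17 and 19 with eBayes without trend, 12 and 36 with no filter, and 2 to 88 and 3 to 98 with 1 array left out. For lactacystin at 48 h against 24 h they were 432 higher and 376 lower, against 57 and 81 with no design covariate, 26 and 41 with the block in its place, and 157 to 432 and 172 to 399 with 1 array left out. No called change of a member turned its sign in these alternatives. The fit on only the groups of a comparison was not run for the interaction, which already uses all 4 groups. Probe sets near the filter, such as that of Psmd2, give little precision, and with 2 control arrays at each time single control arrays carry much weight.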

Other observations

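Some of the proteasome-associated genes were also lower in lactacystin cultures at the later time. In lactacystin cultures at 48 h against lactacystin cultures at 24 h, 6 of the 15 tested were lower and 0 higher, with a median of -0.34, where 5.38% of all probe sets tested were lower. They were Sqstm1 (-1.18 ± 0.15), Usp14, a deubiquitinase that binds the regulator (-0.87 ± 0.15), Vcp (-0.86 ± 0.11), Ecpas (-0.69 ± 0.12), Rad23b (-0.56 ± 0.10) and Uchl5, another deubiquitinase of the regulator (-0.48 ± 0.14). In the interaction, 2 of the 15 were called lower by limma, where 0.816% of all probe sets tested were. They were Sqstm1 (-1.35 ± 0.23, adjusted p = 0.0174) and Vcp (-0.88 ± 0.18, adjusted p = 0.0375). Usp14 read 1405, 1476 and 1497 in lactacystin cultures at 24 h, against 1384 and 783 in controls, and 760, 813 and 781 in lactacystin cultures at 48 h, against 934 and 903 in controls.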
